A study of Mus musculus with 7 samples.

Results

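Pck1, the gene for cytosolic phosphoenolpyruvate carboxykinase, was examined together with 8 further genes of fasting metabolism: Ppargc1a, Cpt1a, Cpt1b, Acadm, Acadl, Pdk4, Angptl4 and Fbp1. These 9 genes were taken by symbol from a table of 35976 genes, and all 9 were present. They were chosen by the levels of Pck1 before birth and on the day after it, so that contrast is given below as a description without a test. The table holds RNA-seq of adrenal glands from C57BL/6J mice, for which the labels name no mutation or treatment. There were 7 libraries, each 1 pool of glands: 40 glands from late gestation (E18.5) with sex not determined, 16 from males and 22 from females at postnatal day 1 (P1), 6 from each sex at 2 weeks and 4 from each sex at 12 weeks. The labels do not say how many animals gave the glands, and no age and sex combination had a replicate. Values are read counts divided by a size factor for each library, here called normalized counts, and 15184210 to 23551289 reads per library fell in genes.

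At birth the placental supply of glucose ends, and the newborn lives on milk fat and on glucose made from non-carbohydrate precursors. Phosphoenolpyruvate carboxykinase makes the committed step of that gluconeogenesis in liver and kidney, and in adipose tissue the same enzyme supplies glycerol for triglyceride. Fasting hormones raise Pck1 transcription through cAMP and glucocorticoid signals, with PGC-1α as coactivator, while peroxisome proliferator-activated receptors (PPARs) switch on genes for fatty acid oxidation.

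Several properties of the libraries bear on what follows. Adrenal cortex markers (Star, Cyp11a1, Cyp11b1 and 6 others) summed to between 251024 and 1126384 normalized counts, so adrenal tissue was present in every library. Liver markers summed to 281825 to 408738 at E18.5 and P1 but to 445 to 495 at 12 weeks. Skeletal muscle markers reached 147594 in the P1 pool labelled female and 12136 in the 2-week female pool, against 329 in the 2-week male pool. Brown fat markers summed to 26945 and 31000 at 2 weeks and to 332 or less at E18.5 and P1. Of the 4 Y-linked genes measured, the median level in the P1 pool labelled female was 21.0% of that in the P1 male pool. At 2 and 12 weeks the female pools had 0.0609% and 0.0132% of the male level. The P1 pool labelled female thus held Y-linked transcripts, below the male level but above the level in the later female pools. In pooled tissue, fewer cells of a type and less RNA per cell cannot be told apart.

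The promoters are shown first because cAMP is a known regulator of Pck1 and acts through a short sequence, the CRE core TGACG or its reverse complement CGTCA, which only some of the members hold. RefSeq promoter windows on GRCm38.p6 matched 7 of the 9 genes, and the 250 bases before the start are printed for the 3 that hold the core, 5′ to 3′ on the gene's strand, with CGTCA in capitals. The windows are chr2:173152823-173153072 on the plus strand for Pck1, chr5:51567726-51567975 on the minus strand for Ppargc1a and chr3:153944644-153944893 on the minus strand for Acadm.

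Pck1: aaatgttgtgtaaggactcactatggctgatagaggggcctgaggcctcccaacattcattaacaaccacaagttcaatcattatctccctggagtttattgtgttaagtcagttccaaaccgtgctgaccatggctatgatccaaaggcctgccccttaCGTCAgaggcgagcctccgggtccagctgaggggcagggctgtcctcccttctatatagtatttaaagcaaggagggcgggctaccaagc

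Ppargc1a: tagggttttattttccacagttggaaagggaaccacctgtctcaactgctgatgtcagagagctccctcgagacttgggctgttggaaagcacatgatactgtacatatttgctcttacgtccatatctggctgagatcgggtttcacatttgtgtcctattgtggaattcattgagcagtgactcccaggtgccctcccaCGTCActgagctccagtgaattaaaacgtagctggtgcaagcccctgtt

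Acadm: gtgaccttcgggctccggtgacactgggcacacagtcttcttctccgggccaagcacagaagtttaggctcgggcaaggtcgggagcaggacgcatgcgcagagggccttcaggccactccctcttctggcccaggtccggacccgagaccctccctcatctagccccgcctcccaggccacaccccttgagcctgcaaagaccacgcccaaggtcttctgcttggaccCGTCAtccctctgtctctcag

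In Pck1 the capitals lie 90 to 86 bases before the start, inside the longer match TTACGTCA, which 0.447% of all 32851 promoter windows hold. In Ppargc1a they lie 49 to 45 bases before the start, and this start lies within the span of the gene, chr5:51454249-52115853, so other transcripts begin elsewhere. In Acadm they lie 21 to 17 bases before the start. All windows were searched over the 250 bases before the start. The core was found on either strand in 17.8% of all windows and in none of the windows of Pdk4, Fbp1, Cpt1a and Acadl. AGGTCA, the hexamer bound by many nuclear receptors, was present on either strand in the windows of Acadm and Cpt1a and in 14.0% of all windows. A paired AGGTCANAGGTCA, the arrangement used by PPARs, was in 0 of the 7 windows and in 0.0335% of all. These matches are letters in a window, and no file here measures binding. The part of the core in the levels of these genes was not tested.

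Pck1 (chr2:173153073-173159274, plus strand) had 43.7 normalized counts at E18.5, which rested on 52 reads with a 95% Poisson interval of 32.6 to 57.3 normalized counts for counting error only. It had 3208 in the P1 male pool and 3800 in the P1 pool labelled female, 6309 in males and 7038 in females at 2 weeks, and 3318 in males and 2792 in females at 12 weeks. The E18.5 library thus stood far below the other 6, both 2-week libraries stood at the top, and the P1 and 12-week libraries overlapped. The male P1 level was 73.4-fold and the other P1 level 87.0-fold the E18.5 level. From P1 to 2 weeks the age means differed by a further 1.90-fold, with no test made because the P1 libraries chose the gene. Between 2 and 12 weeks Pck1 fell, by a mean 2.18-fold.

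Markers of other tissues that express Pck1 were set beside it. From E18.5 to P1 the summed liver markers went from 322640 to 408738 and 281825, and Pck1 per 1000 summed liver counts went from 0.135 to 7.85 and 13.5. At 12 weeks, where liver markers were at 495 and 445 and 8 of 11 (male) and 7 of 11 (female) kidney markers were at 0, Pck1 was still at 3318 and 2792. Kidney markers summed to 1676 at E18.5 and to 11628 and 3220 at P1, and the pool with the higher kidney sum had the lower Pck1. The sum of the adipocyte markers was level across birth, at 2980, 2891 and 3042, but stood at 23214 to 33695 at 2 and 12 weeks. The single markers were not level across birth. Of 8, 3 in the P1 male pool and 5 in the P1 pool labelled female were at least 2-fold higher than at E18.5, and 1 in each was at least 2-fold lower. Brown fat markers went up and down with Pck1 after birth, from 177 and 332 at P1 to 26945 and 31000 at 2 weeks and 5135 and 4450 at 12 weeks. The part of liver, kidney and fat in the Pck1 levels, at birth or later, was not tested.

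**Figure D1:**
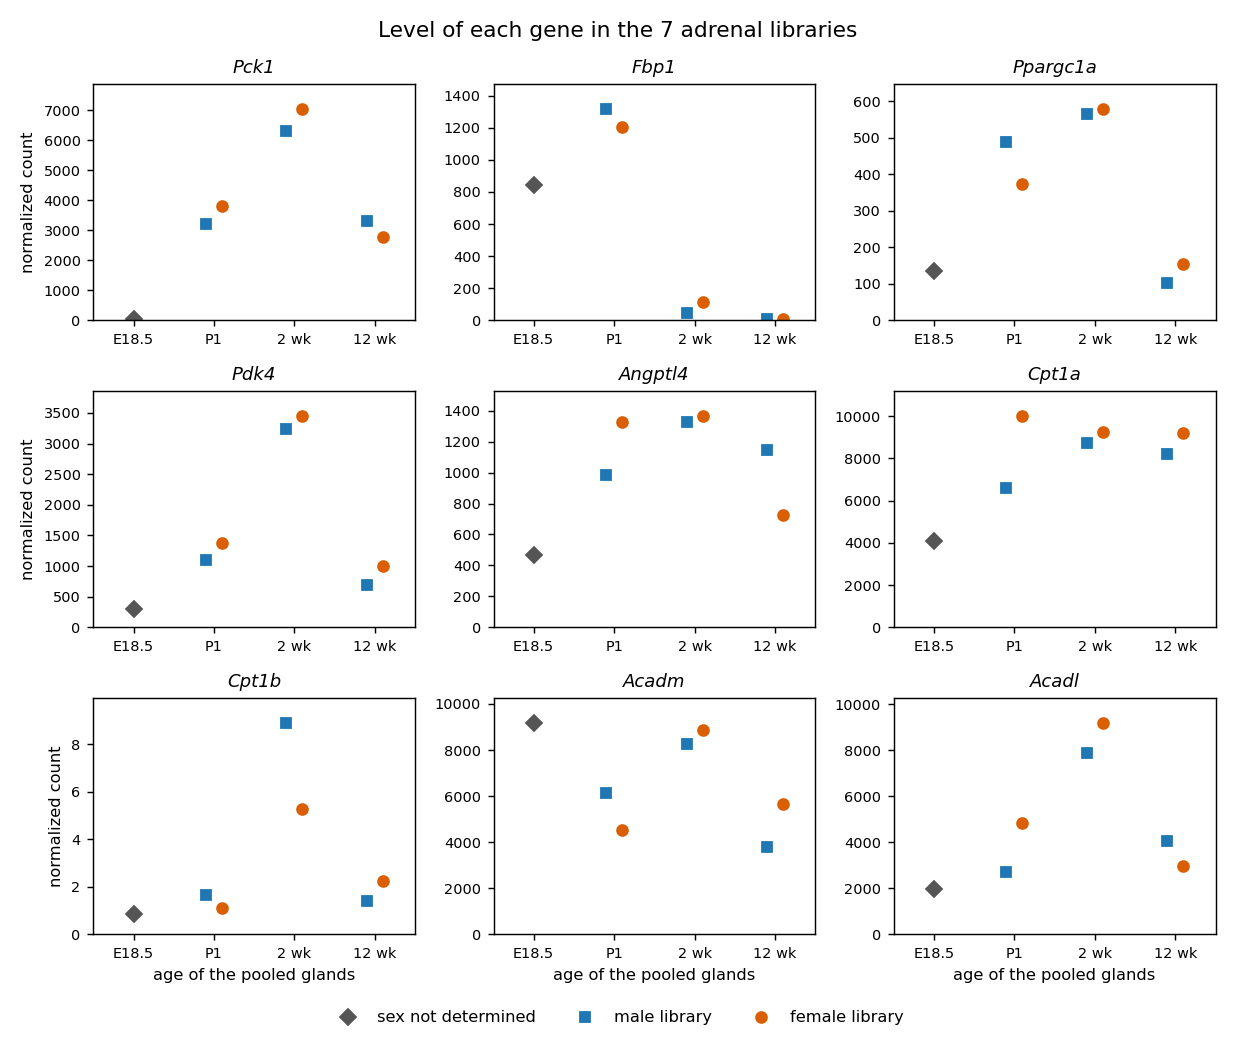
Normalized counts of the 9 genes in each of the 7 libraries, on linear axes from 0, with 1 point per pool, coloured by the labelled sex. Pck1 lay at 43.7 at E18.5 and between 2792 and 7038 in the 6 later libraries, while Fbp1 ended at 8.39 and 7.92 at 12 weeks.

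**Figure D2:**
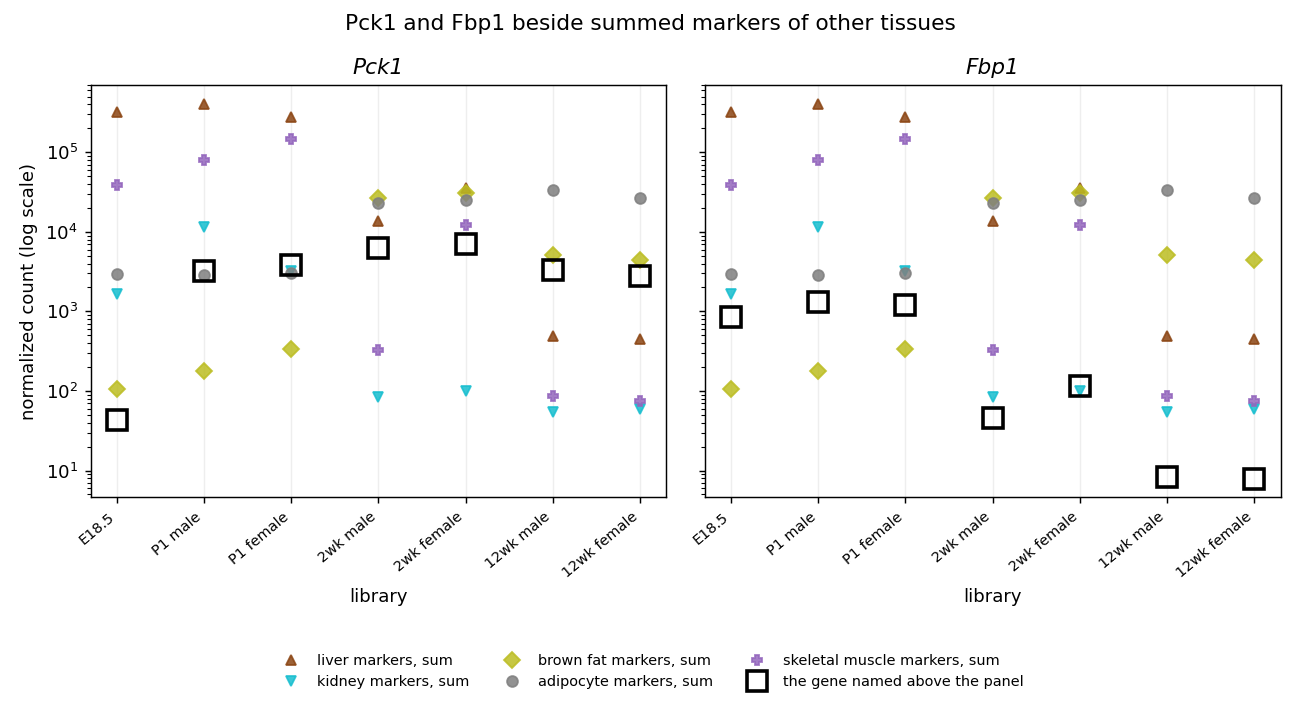
Pck1 (left) and Fbp1 (right) as open squares beside the summed normalized counts of marker lists for liver, kidney, brown fat, adipocytes and skeletal muscle, on a log axis, with 1 position per library. Fbp1 went down together with the liver markers at 2 and 12 weeks, and Pck1 was at 3318 and 2792 where the liver sum was at 495 and 445.

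Pck2, the mitochondrial isoform of the same enzyme, gave a contrast within the reaction. Per kilobase of exon, Pck2 lay between 55.1 and 77.3 normalized counts in all 7 libraries. Pck1 per kilobase was 12.7 at E18.5, 936 and 1108 at P1, 1840 and 2053 at 2 weeks, and 968 and 814 at 12 weeks. Pck1 was therefore 0.165 times Pck2 at E18.5 and 12.3 to 28.3 times Pck2 in the later libraries: the mitochondrial form was the more abundant transcript before birth and the cytosolic form afterwards.

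Fbp1 (chr13:62864753-62888298, minus strand) encodes fructose-1,6-bisphosphatase, a later step of gluconeogenesis, and its course parted from that of Pck1 after P1. It had 843.6 normalized counts at E18.5, 1317 and 1204 at P1, 46.3 in males and 113.8 in females at 2 weeks, and 8.39 and 7.92 at 12 weeks, where only 6 and 7 reads were found. The E18.5 and P1 libraries were all high, the 2-week libraries far lower and the 12-week libraries lowest, with no overlap. Fbp1 fell by 4.10 ± 0.40 (SE) on the log2(normalized count + 1) scale from P1 to 2 weeks (limma, adjusted p = 0.00330) and fell by 3.01 ± 0.40 from 2 to 12 weeks (limma, adjusted p = 0.00605). Age means were 15.7-fold lower at 2 weeks than at P1 and 155-fold lower at 12 weeks than at P1.

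Liver markers moved with Fbp1. Per 1000 summed liver counts, Fbp1 lay between 2.61 and 4.27 in the 5 libraries from E18.5 to 2 weeks and at 16.9 and 17.8 at 12 weeks, where both quantities were small. At 2 weeks the female pool had more of both, with 113.8 against 46.3 for Fbp1 and 35511 against 13596 for the liver markers. The genes most like Fbp1 over the 7 libraries were Serpina11, Slc2a2 and Sfrp2 (Pearson r = 0.999 each on log2 values), Colec10 (0.998) and Itih3 (0.997), of which Serpina11, Slc2a2 and Itih3 are known from liver. The part of liver tissue in the Fbp1 levels was not tested.

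Ppargc1a (chr5:51454249-52115853, minus strand) encodes PGC-1α, the coactivator of both gluconeogenic and oxidative genes. It had 135.3 normalized counts at E18.5, 488.5 in the P1 male pool, 374.2 in the pool labelled female, 564.0 and 578.7 at 2 weeks, and 102.1 and 153.9 at 12 weeks. The P1 and 2-week libraries stood above the others, and the E18.5 library lay between the 12-week libraries. P1 levels were 3.61-fold and 2.77-fold the E18.5 level. From 2 to 12 weeks it fell by 2.18 ± 0.26 on the log2 scale, or 4.46-fold by age means (limma, adjusted p = 0.00431). The difference from P1 to 2 weeks was 0.42 ± 0.26 (limma, adjusted p = 0.316), within the spread of the pools.

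Pdk4 (chr6:5483351-5496278, minus strand) encodes a kinase that shuts off pyruvate dehydrogenase and so spares glucose carbon. Its normalized counts were 305.0 at E18.5, 1096 and 1381 at P1, 3239 and 3450 at 2 weeks, and 693.5 and 1007 at 12 weeks. The 3 postnatal ages did not overlap: 2 weeks was highest, P1 came next and 12 weeks was lower, with E18.5 below all. From P1 to 2 weeks Pdk4 rose by 1.44 ± 0.16 (limma, adjusted p = 0.00419), and from 2 to 12 weeks it fell by 2.0 ± 0.16, a 3.93-fold decline in age means (limma, adjusted p = 0.00137). Its P1 levels were 3.60-fold and 4.53-fold the level at E18.5. Per kilobase of exon, Pdk4 was 0.407 times its relative Pdk1 at E18.5, 1.32 and 1.94 times at P1, and 5.16 and 4.84 times at 2 weeks. At 12 weeks the ratio was 1.16 and 1.29. Relative to Pdk2 it was 0.991 at E18.5, and 2.19 (male) and 1.63 (female) at 12 weeks. Relative to Pdk3 it was 0.334 at E18.5, and 0.887 (male) and 1.74 (female) at 12 weeks. Brown fat markers moved with Pdk4, from 177 and 332 at P1 to 26945 and 31000 at 2 weeks and 5135 and 4450 at 12 weeks. Skeletal muscle had a marker sum 36.9-fold lower in the 2-week male pool than in the female pool, where Pdk4 was 3239 against 3450. The part of either tissue in the Pdk4 levels was not tested.

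Angptl4 (chr17:33774900-33781575, minus strand) encodes a secreted inhibitor of lipoprotein lipase. It had 468.0 normalized counts at E18.5, 985.2 and 1329 at P1, 1326 and 1366 at 2 weeks, and 1145 and 722.9 at 12 weeks. The E18.5 library was lowest and the later ages overlapped. P1 levels were 2.1-fold and 2.84-fold the E18.5 level, and no postnatal step passed the test, with 0.23 ± 0.26 from P1 to 2 weeks (limma, adjusted p = 0.575) and -0.56 ± 0.26 from 2 to 12 weeks (limma, adjusted p = 0.186).

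Cpt1a (chr19:3322326-3385735, plus strand) encodes the carnitine palmitoyltransferase that admits long-chain fatty acids to mitochondria. It had 4080 normalized counts at E18.5, 6612 and 10010 at P1, 8750 and 9247 at 2 weeks, and 8222 and 9224 at 12 weeks. The E18.5 library was again lowest, and the P1 pools alone spanned the range of the other 4. P1 levels were 1.62-fold and 2.45-fold that at E18.5, and the postnatal differences were 0.14 ± 0.18 (limma, adjusted p = 0.626) and -0.05 ± 0.18 (limma, adjusted p = 0.887). Per kilobase, Cpt1a was 12.4 to 46.4 times the brain-type relative Cpt1c in the 7 libraries.

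Cpt1b (chr15:89416405-89425862) is the muscle-type form, and its level could not be read from this table. It was listed with 1 to 10 reads per library, or 0.84 to 8.90 normalized counts, below the minimum mean of 10 for testing. In GENCODE M21, 81.4% of its exon bases are shared on the same strand with Gm44502, a read-through of Chkb and Cpt1b, and how reads in shared bases were counted is not given in the sources used here. Gm44502 was at 0 in all 7 libraries and Chkb was at 0.535 normalized counts per kilobase or less, although skeletal muscle markers reached 147594 and the brown fat gene Ucp1 21706. None of the other 8 members shares exon bases with another gene in that annotation.

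Acadl (chr1:66830839-66863309, minus strand) encodes the dehydrogenase that starts β-oxidation of long chains in mitochondria. Its normalized counts were 1981 at E18.5, 2714 in the P1 male pool and 4842 in the pool labelled female, 7876 and 9194 at 2 weeks, and 4078 and 2969 at 12 weeks. The 2-week libraries stood above all others, and P1 and 12 weeks overlapped. Acadl rose by 1.23 ± 0.29 from P1 to 2 weeks (limma, adjusted p = 0.0339) and fell by 1.29 ± 0.29, or 2.42-fold in age means, from 2 to 12 weeks (limma, adjusted p = 0.0309).

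Acadm (chr3:153922353-153944643, minus strand) encodes the medium-chain enzyme, and alone among the 8 readable members was higher at E18.5 than in every later library. It had 9175 normalized counts at E18.5, 6152 and 4550 at P1, 8266 and 8853 at 2 weeks, and 3806 and 5665 at 12 weeks. P1 levels were 0.670 and 0.496 of that at E18.5. At 2 weeks it was near the E18.5 level again. The postnatal differences were 0.69 ± 0.24 (limma, adjusted p = 0.103) and -0.88 ± 0.24 (limma, adjusted p = 0.0559), and neither passed 0.05.

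Across birth, 4 of the 8 readable members (Pck1, Ppargc1a, Pdk4 and Angptl4) were at least 2-fold higher in both P1 pools than at E18.5, where 2.91% of all genes were, and 0 were at least 2-fold lower in both, where 2.24% were. That contrast chose the genes, so the count describes them only. From P1 to 2 weeks, with Pck1 left untested, 2 of 7 members rose (Acadl and Pdk4) and 1 fell (Fbp1), where 5.89% of all genes rose and 10.5% fell. From 2 to 12 weeks 5 of 8 members fell and 0 rose, against 9.89% of all genes falling and 5.4% rising. For Pck1 this last step was a fall of 1.13 ± 0.17 (limma, adjusted p = 0.00885). Both 2-week libraries stood above the other 4 postnatal libraries for 5 of 8 members (Pck1, Ppargc1a, Acadm, Acadl and Pdk4) and for 9.96% of all genes. From P1 to 12 weeks, again without Pck1, 3 of 7 members fell and 0 rose, against 23.5% of all genes falling and 17.6% rising. The log2 differences were -7.11 ± 0.40 for Fbp1, -1.76 ± 0.26 for Ppargc1a and -0.56 ± 0.16 for Pdk4 (limma, adjusted p = 0.000143, 0.00286 and 0.0331). The 3 comparisons share libraries in pairs, so they are not independent.

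These tests used limma on 6 postnatal pools with age and sex as terms, with Benjamini-Hochberg adjustment over 16720 genes. The p-values measure only the spread between pools that age and sex leave, over 2 residual degrees of freedom. Each gene's spread was drawn toward a trend fitted over all genes tested, so it is partly borrowed from other genes. For the falls after 2 weeks, fewer members passed when a P1 or a 2-week pool was left out, as fewer of all genes did. The member differences are given instead, without the 2-week female and then the 2-week male pool. They were -1.05 and -1.21 for Pck1, -2.21 and -2.15 for Ppargc1a, and -2.17 and -1.83 for Pdk4. For Acadl they were -1.27 and -1.31, and for Fbp1 -2.32 and -3.70. With genes of low mean kept in, 0 members and 0 of all genes passed by limma. On recovered reads edgeR called 5 members among 2396 genes called, and DESeq2 6 among 2917. Without the variance trend Acadl passed neither from P1 to 2 weeks nor from 2 to 12 weeks (limma, adjusted p = 0.103 and 0.0952). From P1 to 2 weeks fewer members also passed when a P1 or a 2-week pool was left out, as fewer of all genes did. Leaving out the P1 male pool and then the P1 pool labelled female gave differences of 0.75 and 1.71 for Acadl. Pdk4 then had 1.43 and 1.45, and Fbp1 -3.73 and -4.46. Leaving out the 2-week male and then the 2-week female pool gave 1.248 and 1.213 for Acadl. Pdk4 then had 1.27 and 1.61, and Fbp1 -3.41 and -4.79. The Pdk4 fall from P1 to 12 weeks was lost when any 1 pool other than the 12-week female was left out, with upper quartile scaling, without the sex term, without the variance trend and with low genes kept in.

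**Figure D3:**
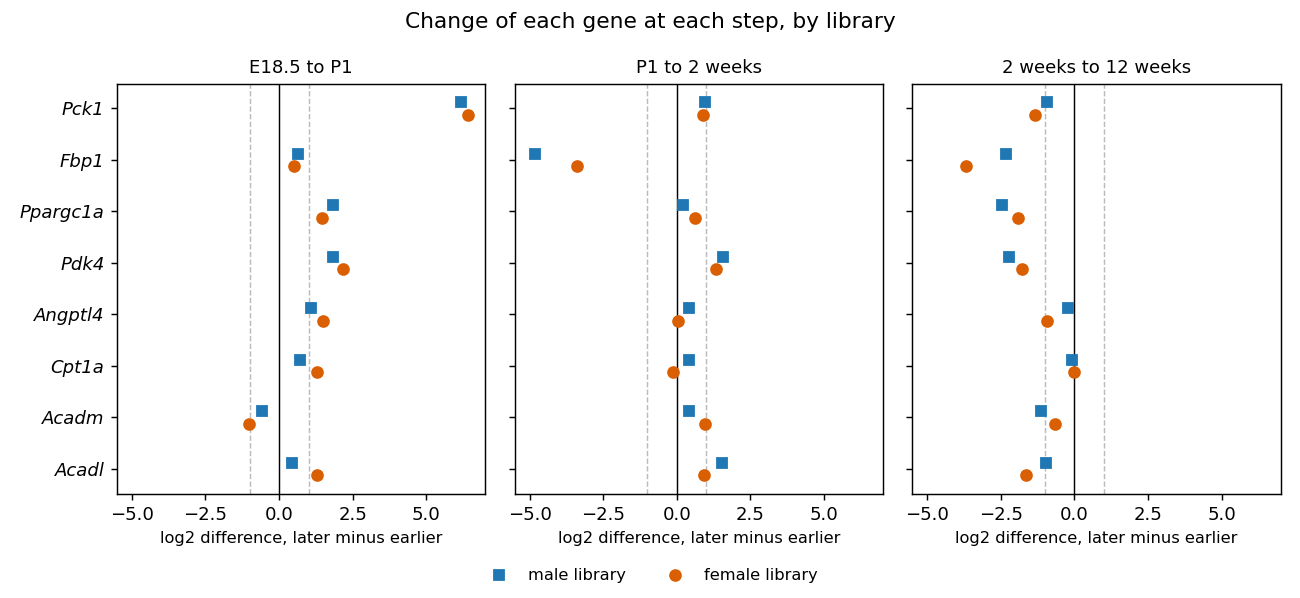
Log2 differences of the members for each step of age, with squares for male and circles for female libraries, later minus earlier age on the log2(normalized count + 1) scale, and dashed lines at a 2-fold difference. From E18.5 to P1 Pck1 lies at 6.17 and 6.41, and from 2 to 12 weeks all points of the 8 members lie at or below 0.

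No difference between the sexes passed the test in any member. In limma 0 of 8 members were called at an adjusted p under 0.05, edgeR and DESeq2 called 0, and of all genes 0.00598% were called. This comparison counts the P1 pool labelled female, which held Y-linked transcripts, as female, and without that pool 0 members were called as well. Pdk4 alone had an unadjusted p under 0.05, as 3.12% of all genes had, with males lower by a log2 difference of -0.32 ± 0.13 (limma, adjusted p = 0.999). Within single ages, 0 of 8 members differed 2-fold or more between the pools at P1, where 3.75% of all genes were higher and 3.03% lower in the male pool, or at 12 weeks, where 4.84% and 3.98% were. At 2 weeks 1 member, Fbp1, was lower in the male pool, where 0.568% of all genes were higher and 3.67% lower.

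The other genes of these pathways were followed in lists chosen with earlier results known, with the members left out. Of all genes tested, 5.89% rose and 10.5% fell from P1 to 2 weeks, and 5.4% rose and 9.89% fell from 2 to 12 weeks. Over all lists 36 of 116 genes rose and 15 fell in the first step, 51 in all, and 8 rose and 26 fell in the second, 34 in all. Both counts fell when a P1 or a 2-week pool was left out, as the number called over all genes did. For the carnitine shuttle and mitochondrial β-oxidation, 15 of 19 genes rose from P1 to 2 weeks and 0 fell, with a median of 1.0 on the log2 scale against 0.0026 for all genes. From 2 to 12 weeks 10 of the 19 fell and 0 rose, with a median of -0.61 against -0.03. From E18.5 to P1, 0 of the 19 were 2-fold apart in both pools. The carnitine-acylcarnitine carrier Slc25a20 had 478.1 normalized counts at E18.5, 648.9 and 853.2 at P1, 2398 and 2707 at 2 weeks and 1113 and 884.7 at 12 weeks. It rose by 1.77 ± 0.20 (limma, adjusted p = 0.00432) and fell by 1.36 ± 0.20 (limma, adjusted p = 0.00820). Eci1, which prepares unsaturated chains, rose by 1.61 ± 0.15 and the very-long-chain dehydrogenase Acadvl by 1.55 ± 0.16 (limma, adjusted p = 0.00285 and 0.00347). Etfdh and Etfa, which pass electrons from these dehydrogenases to the respiratory chain, fell after 2 weeks, with log2 differences of -1.16 ± 0.15 and -1.14 ± 0.14 (limma, adjusted p = 0.00607 and 0.00463). Brown fat, a tissue that burns fat, moved the same way: 7 of 7 of its markers were at least 2-fold higher at 2 weeks than at P1 in each sex, and 5 (male) and 6 (female) of 7 were lower again at 12 weeks. Ucp1 went from 3.3 and 24.3 at P1 to 19373 and 21706 at 2 weeks and 2705 and 2197 at 12 weeks. The part of brown fat in the rise of these genes was not tested.

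**Figure D4:**
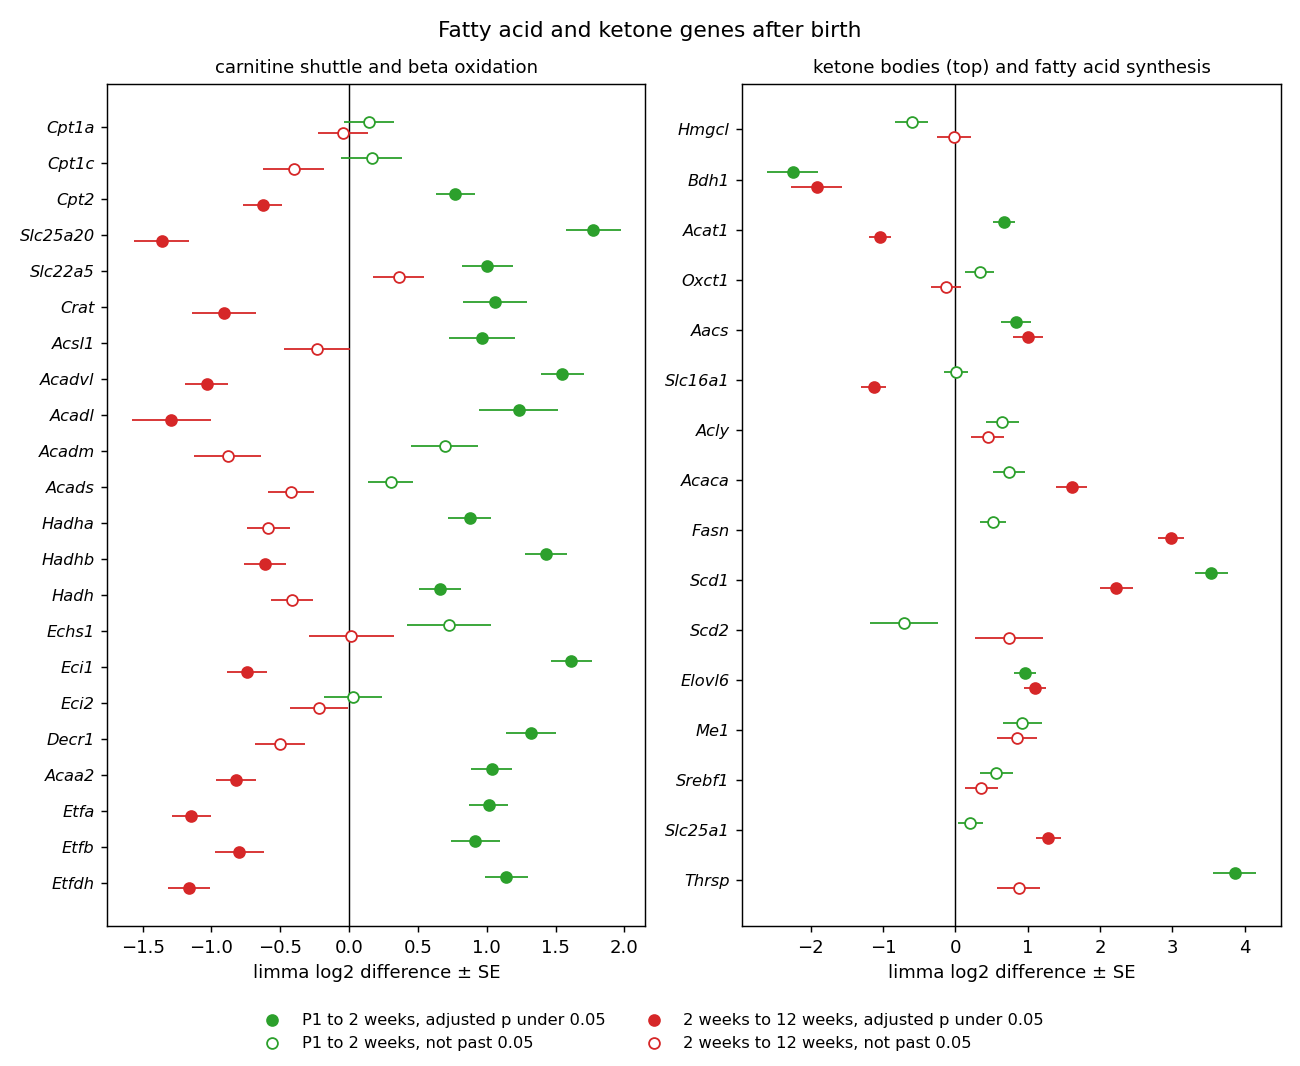
Log2 differences with standard errors from limma for the carnitine shuttle and β-oxidation genes, members included (left), and for 6 ketone body genes and the fatty acid synthesis genes (right), in green from P1 to 2 weeks and in red from 2 to 12 weeks, filled where the adjusted p was under 0.05. Apart from members, 15 of 19 genes on the left rose and then 10 fell, while synthesis genes such as Fasn lie to the right at 2.98 in the second step.

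Of 13 further gluconeogenesis genes, 3 were at least 2-fold higher in both P1 pools than at E18.5 and 0 lower, where 2.91% and 2.24% of all genes were. From P1 to 2 weeks 2 rose and 3 fell, against 5.89% and 10.5% of all genes, and from 2 to 12 weeks 0 rose and 3 fell, against 5.4% and 9.89%. G6pc, the glucose-6-phosphatase that releases glucose, had 203.3 normalized counts at E18.5, 1886 and 948.2 at P1, 143.2 and 186.1 at 2 weeks, and 4.2 and 7.9 at 12 weeks. It fell at each later step, with log2 differences of -3.03 and -4.59 (limma, adjusted p = 0.00797 and 0.00206), and liver marker sums and Fbp1 were lower at each of these steps too. The alanine aminotransferases Gpt and Gpt2 rose from P1 to 2 weeks by 2.1 and 0.95 (limma, adjusted p = 0.0157 and 0.0306). Pck1 and G6pc thus parted after P1: at 12 weeks Pck1 was at 3318 and 2792 and G6pc at 4.2 and 7.9.

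Ketone body genes gave no common direction, with 2 of 7 rising and 2 falling from P1 to 2 weeks, where 5.89% of all genes rose and 10.5% fell. From 2 to 12 weeks 1 rose and 3 fell, against 5.4% and 9.89%. Bdh1, which interconverts the ketone bodies, fell at both steps, with log2 differences of -2.25 and -1.92 (limma, adjusted p = 0.0105 and 0.0173). Acat1, the mitochondrial thiolase, rose by 0.67 and then fell by 1.04 (limma, adjusted p = 0.0298 and 0.00762), and the monocarboxylate carrier Slc16a1 fell by 1.13 after 2 weeks (limma, adjusted p = 0.00862). Of 9 peroxisomal oxidation genes, 2 were at least 2-fold higher in both P1 pools than at E18.5, where 2.91% of all genes were. From 2 to 12 weeks 1 of the 9 rose, against 5.4% of all genes.

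Among 28 fuel control genes, 8 rose and 3 fell from P1 to 2 weeks, and 1 rose and 4 fell from 2 to 12 weeks, where 5.89% and 10.5%, and then 5.4% and 9.89%, of all genes did. Ppara, the receptor that senses fatty acids in oxidative tissues, had 555 normalized counts at E18.5, 638 and 766 at P1, 1475 and 1719 at 2 weeks and 456 and 455 at 12 weeks. It fell by 1.8 ± 0.16 after 2 weeks (limma, adjusted p = 0.00155), and Ppargc1b, the close relative of Ppargc1a, fell by 2.33 ± 0.19 (limma, adjusted p = 0.00137). At the same step brown fat markers were 5.25-fold lower in males and 6.97-fold lower in females, and their part in these falls was not tested. Pparg, the adipocyte receptor, rose by 3.14 ± 0.22 from P1 to 2 weeks (limma, adjusted p = 0.00159), as adipocyte markers went from 2891 and 3042 to 23214 and 25458. Hnf4a, a liver and kidney transcription factor, fell by 4.41 (limma, adjusted p = 0.00347).

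Of 18 measured PPAR targets, 7 were at least 2-fold higher in both P1 pools than at E18.5 and 0 lower, where 2.91% and 2.24% of all genes were, with a median difference of 1.32 on the log2 scale against 0.03 for all genes. Between the P1 pools, 9 of the 18 were at least 2-fold lower in the male pool and 0 higher, where 3.03% of all genes were lower and 3.75% higher. The median was -0.96 on the log2 scale against -0.02 for all genes. Cyp4a14, a fatty acid hydroxylase, had 43.7 normalized counts at E18.5, 482.0 in the P1 male pool and 4711 in the pool labelled female, and Cyp4a10 had 42.9, 224.2 and 1793. Both were at 56.5 or less at 2 and 12 weeks. Fabp3, a fatty acid binding protein of muscle, had 127.7, 447.6 and 1635 in the same 3 libraries. The pool labelled female also had the larger skeletal muscle sum, 147594 against 79617, and the smaller liver sum, 281825 against 408738, and their part in these differences was not tested.

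Genes for the synthesis of fatty acids, the opposite pathway, rose or did not pass the test at the steps after P1. From E18.5 to P1 their median difference was -0.70 on the log2 scale against 0.03 for all genes. At that step 0 of 10 were at least 2-fold higher and 0 lower in both P1 pools, where 2.91% and 2.24% of all genes were. Of 10 genes, 3 rose from P1 to 2 weeks, where 5.89% of all genes rose, and 5 from 2 to 12 weeks, where 5.4% rose, and 0 fell at either step. Fasn, fatty acid synthase, had 8237 normalized counts at E18.5, 4354 and 5337 at P1, 7316 and 6536 at 2 weeks, and 54878 and 54185 at 12 weeks. It rose by 2.98 ± 0.18 after 2 weeks (limma, adjusted p = 0.000703), Acaca by 1.61 (limma, adjusted p = 0.00627) and Scd1 by 3.54 and then 2.22 at the successive steps (limma, adjusted p = 0.00159 and 0.00267). Adipocyte markers, from cells that also make fat, were 8.03-fold and 8.37-fold higher at 2 weeks than at P1 in males and females, and 1.45-fold and 1.05-fold higher at 12 than at 2 weeks. Adrenal cortex markers were 1.64-fold and 2.16-fold higher at 12 than at 2 weeks, and the part of either in these rises was not tested.

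By likeness over the 7 libraries on log2 values, the genes nearest to Pck1 among 12254 were Ptrf (Pearson r = 0.992), Tceb2 (0.977), Cenpb (0.974), Stx6 (0.972) and Ninj1 (0.971), and the low E18.5 library is shared by all of them. The genes nearest to Cpt1a were Gnl1 (0.995), Wfdc1 (0.968), Secisbp2l (0.965), Arhgef3 (0.962) and Rp9 (0.957). Among the members, Pck1 correlated at 0.912 with Cpt1a, 0.895 with Angptl4 and 0.829 with Pdk4, and at -0.335 with Acadm and -0.353 with Fbp1. Acadl and Pdk4 correlated at 0.910. These coefficients over 7 libraries are descriptions without a test.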

How the data were processed

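Whole adrenal RNA from 7 pools of glands was sequenced, and the deposited table gives a signal per gene and library that its values show to be read counts divided by 1 number per library. The submitters' processing notes list CASAVA 1.8.2, HISAT2 2.1.0, HTSeq 0.9.1, DESeq2 2.11.40.6 and mm10, without their roles. The annotation and strand setting are not given in the sources used here. Dividing by the value of 1 read returned whole reads for 100.0% of values within 0.01 reads.

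The members and lists were chosen with earlier results of these data known. Tests covered the 16720 genes averaging 10 normalized counts or more, with limma 3.58.1 in R 4.3.3 on log2(normalized count + 1), 6 postnatal pools, additive age and sex, trend and Benjamini-Hochberg adjustment. Pck1 was not tested in steps that use P1. E18.5 had 1 pool and was only described. The read tests were edgeR 4.0.16 and DESeq2 1.42.0. Named genes were the members, in each list the 3 highest and 3 lowest differences among genes reaching 100 normalized counts in either age, and the 5 likest genes by Pearson r. Promoters come from RefSeq (GRCm38.p6) and exon lengths and overlaps from GENCODE M21. Motifs were chosen after the sequences were seen. Some list genes are counted but not reported singly here.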

Additional observations from a re-analysis of the deposited data

Results flagged for a closer look

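The difference between the male pool and the pool labelled female had opposite signs at P1 and at 12 weeks in 4 members. These were male minus female differences on the log2 scale with 1 pool each, and the change of sign was not tested. Ppargc1a was higher in the male pool at P1 (0.38) and lower at 12 weeks (-0.59). Acadm showed the same order (0.44 and -0.57). Acadl was lower in the male pool at P1 (-0.83) and higher at 12 weeks (0.46), and Angptl4 likewise (-0.43 and 0.66).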

How the results depend on the processing

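No paired analysis was possible because each age and sex had 1 library and the labels give no replicate numbers. Of 303 member values recomputed under the alternatives, 252 kept direction and side of the threshold, 38 lost and 7 gained a call, and 6 changed sign. Those 6 were Cpt1a from P1 to 2 weeks without the P1 male pool (-0.093) and without the 2-week male pool (-0.0064), Angptl4 from P1 to 2 weeks without the P1 male pool (-0.14), and Cpt1a from 2 to 12 weeks with upper quartile scaling (0.036), without the 2-week male pool (0.10) and without the 12-week female pool (0.04). Over the pools left out in turn, Cpt1a ran from -0.093 to 0.38 and from -0.20 to 0.10 in the respective steps, and Angptl4 from -0.14 to 0.60 from P1 to 2 weeks. None of the 6 passed the test, and the cause was not tested. With genes of low mean kept in, the 3 members called from P1 to 2 weeks became 0, the 5 from 2 to 12 weeks became 0, and the list genes called went from 51 to 0, 34 to 0 and, from P1 to 12 weeks, 57 to 36. Of all genes, the number called then went from 2737 to 0, from 2557 to 0 and from 6881 to 4691 in the respective comparisons. Without a variance trend the list genes called were 30 from P1 to 2 weeks and 20 from 2 to 12 weeks, where 1672 and 1661 of all genes were called. Leaving out 1 pool at a time gave 0 to 4 members and 0 to 68 list genes from P1 to 2 weeks, 1 to 6 members and 7 to 43 list genes from 2 to 12 weeks, and 4 to 7 members at least 2-fold apart from E18.5 to P1. For sex, 0 list genes were called, 1 by DESeq2 and 0 to 2 when 1 pool was left out. Depth limits Fbp1 at 12 weeks (6 and 7 reads) and Pck1 at E18.5 (52 reads).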

Other observations

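Glycolysis genes differed between the P1 pools: 4 of 16 had 2-fold or more in the male pool over the pool labelled female and 0 the reverse, where 3.75% of all genes were higher and 3.03% lower in the male pool, with a median of 0.56 on the log2 scale against -0.02 for all genes. Eno1, enolase, had 12385 normalized counts in the male pool against 4013, and Ldha, lactate dehydrogenase, 9205 against 4592. Exocrine pancreas markers summed to 7799 in the male pool against 238 and kidney markers to 11628 against 3220, and their part in these differences was not tested. From E18.5 to P1, 2 of 16 were at least 2-fold lower in both pools and 0 higher, where 2.24% and 2.91% of all genes were. These were the lactate exporter Slc16a3 (1070 to 472.1 and 211.9) and the hexokinase Hk2 (939.3 to 448.4 and 421.7). Fgf21, a fasting hormone and PPAR target below the naming rule and chosen after its values were seen, had 3 reads in the P1 male pool, 23 in the pool labelled female and 0 in the other 5 libraries, where 0 allows up to 3 reads.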
